A study of Mus musculus with 35 samples.

Results

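Complex I (NADH:ubiquinone oxidoreductase) was followed at the RNA level in bone marrow-derived macrophages (BMDMs) through the genes of its subunits. The genes were chosen by symbol: Ndufa, Ndufb, Ndufc, Ndufs and Ndufv with a number, Ndufab1, and the mitochondrial mt-Nd genes. Of 47 such symbols, 44 had a mean of at least 1 FPKM (fragments scaled to gene length and library total) over all libraries, as did 11354 of all 47069 identifiers. Of these 44 genes, 38 lie in the nuclear genome and 6 in the mitochondrial genome. The 3 left out were mt-Nd4l and the processed pseudogenes Ndufa11b and Ndufs6b. Among the 38, Ndufa4 carries a complex I name but is now placed in complex IV (cytochrome c oxidase), and Ndufb4c is a processed copy of Ndufb4.

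Complex I takes electrons from NADH at the tip of its peripheral arm, passes them along iron-sulphur clusters to ubiquinone, and pumps protons through its membrane arm. Core subunits carry the catalysis, and accessory subunits, all nuclear-encoded, serve assembly and stability. The core of the membrane arm is encoded in mitochondrial DNA, so a complete enzyme needs transcripts from both genomes. In macrophages LPS, a bacterial cell wall component, is known to move metabolism towards glycolysis.

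The cells came from C57BL/6 mice, wild-type (WT) or labelled AMPKa1-/- (lacking the AMPK α1 catalytic subunit), and were grown in medium conditioned by L929 cells. They were kept for 24 h with vehicle (DMSO), the glucocorticoid dexamethasone (Dex, 100 nM), LPS (100 ng/ml), LPS + Dex, DAMPs (damage-associated molecular patterns, 1 µg/ml) or DAMPs + Dex. Each of the 12 groups had 3 libraries, except WT LPS with replicates 2 and 3 (n = 2), which gave 17 WT libraries and 18 labelled AMPKa1-/-. Single libraries are named by treatment and replicate number (LPS 2). The labels name no promoter, Cre line or clone, and the study describes its n as cultures of individual mice. Library depth, read from the step that 1 fragment makes in FPKM, was 15.8 to 32.0 M fragments, so that 1 fragment on 1 kb was worth 0.0313 to 0.0631 FPKM.

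Prkaa1, the gene of AMPK α1, did not separate the genotypes. Its lowest, median and highest levels were 8.59, 15.3 and 26.1 FPKM over the 17 WT libraries, and 9.05, 15.1 and 24.0 FPKM over the 18 labelled AMPKa1-/-. The ranges overlapped almost fully. A value for the whole gene does not check the deletion of an exon, so the genotype is given below as labelled ("KO-labelled"). All 6 macrophage markers (Adgre1, Cd68, Csf1r, Itgam, Mertk and Cd14) averaged above 1 FPKM in every group, with a sum of 2477 to 5426 FPKM per library. The markers of T cells, erythroid cells and dendritic cells (3 each) summed to less than 1 FPKM in every library, and those of B cells (3) to at most 2.05 FPKM. The glucocorticoid target Tsc22d3 (GILZ) rose with Dex alone by 3.70 ± 0.15 (log2, SE) in WT and 3.98 ± 0.15 in KO-labelled cells (limma, adjusted p = 2.03e-16 and 1.89e-17).

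The 250 bases before the RefSeq transcription start (GRCm38.p6) are shown for 4 genes whose transcripts took different courses: the accessory subunits Ndufb6, which rose with LPS, and Ndufa6, which did not pass the test there, and likewise AA467197, which rose with LPS, and its paralog Ndufa4, which did not pass. Capitals mark a match to 1 of 4 motifs searched on both strands: GCGCATGC (NRF1, a factor of nuclear mitochondrial genes), CCGGAAG (ETS factors such as GABP), AAGGTCA (ERR half-site) and ACANNNTGT (glucocorticoid response element). Each sequence reads 5′ to 3′ on the strand of its gene.
Ndufa6, chr15:82354292-82354541, minus strand: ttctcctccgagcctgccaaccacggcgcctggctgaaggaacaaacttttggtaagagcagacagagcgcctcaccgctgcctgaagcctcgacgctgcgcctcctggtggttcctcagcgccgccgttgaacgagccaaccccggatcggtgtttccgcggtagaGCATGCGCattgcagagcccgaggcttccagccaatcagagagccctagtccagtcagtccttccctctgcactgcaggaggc
Ndufb6, chr4:40279422-40279671, minus strand: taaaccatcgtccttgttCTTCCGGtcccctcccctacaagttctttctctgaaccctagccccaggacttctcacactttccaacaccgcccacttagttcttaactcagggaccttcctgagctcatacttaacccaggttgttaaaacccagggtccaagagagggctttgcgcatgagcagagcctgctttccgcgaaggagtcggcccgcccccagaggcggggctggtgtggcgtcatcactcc
Ndufa4, chr6:11907451-11907700, minus strand: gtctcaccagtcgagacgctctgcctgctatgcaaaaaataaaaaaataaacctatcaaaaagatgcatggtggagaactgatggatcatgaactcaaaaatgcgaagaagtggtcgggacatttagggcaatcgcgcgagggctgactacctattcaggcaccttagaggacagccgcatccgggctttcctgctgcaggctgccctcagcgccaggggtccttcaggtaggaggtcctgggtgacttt
AA467197, chr2:122637637-122637886, plus strand: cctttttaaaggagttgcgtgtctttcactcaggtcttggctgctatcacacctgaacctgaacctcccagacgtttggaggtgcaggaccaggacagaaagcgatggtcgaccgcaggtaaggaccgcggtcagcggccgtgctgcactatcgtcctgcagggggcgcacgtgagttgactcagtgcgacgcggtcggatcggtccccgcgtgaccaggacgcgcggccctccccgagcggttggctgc
Ndufa6 held an NRF1 match that begins at position -83 from the start, and Ndufb6 an ETS match at -232. Ndufs4 (not shown), which also rose with LPS, held no match, so a match did not go with the LPS course. Over the whole RefSeq window (250 bases before to 50 after the start), which 33 of the 38 nuclear genes had, NRF1 was matched in 3 (9.09%) against 3.05% of 27025 genes, and ETS in 4 (12.1% against 9.93%). ERR was matched in 3 (9.09% against 5.38%) and the glucocorticoid element in 0 (against 7.9%). A match describes letters and is not a binding site.

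The subunit transcripts were abundant. Mean levels of nuclear genes ranged from 2.28 FPKM (Ndufb2, membrane arm) to 260 FPKM (Ndufc2, membrane arm), and of mitochondrial ones from 15.5 FPKM (mt-Nd3) to 1763 FPKM (mt-Nd1, which sits where the arms meet). Some levels are uncertain because other gene models share their sequence. Of its 50-base stretches, mt-Nd4l shared 98.8% with Gm10222, mt-Nd3 shared 98% with Gm28438, mt-Nd4 shared 62.2% with Gm28439, and Ndufb4c shared 100% with Ndufb4 and others. mt-Nd4l was listed at 0 in most libraries and never above 0.294 FPKM. mt-Nd6 lies on the opposite strand to the other mt-Nd genes and overlaps mt-Nd5, and since strand-specific counting is not stated, their reads there cannot be told apart. Ndufb6 likewise shares 39% of its exon bases with Smim27 on the other strand, which reached at most 0.478 FPKM. Also with genes on the other strand, Ndufa13 shares 30.0% with Tssk6 (0.409 to 2.18 FPKM), Ndufb11 shares 12.9% with Rbm10 (11.4 to 22.2 FPKM) and Ndufb5 shares 12.3% with Mrpl47 (4.04 to 10.9 FPKM).

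Nuclear and mitochondrial subunits took different courses over the treatments. In WT cells the mean of log2(FPKM + 1) over the 38 nuclear genes was 5.97 to 6.18 with vehicle, 6.05 and 6.26 with LPS and 6.53 to 6.94 with LPS + Dex. Over the 6 mitochondrial genes it was 8.20 to 8.36, 7.28 and 7.43 and 8.66 to 8.96. With LPS the mitochondrial mean lay below every library of the other treatments, while the nuclear mean stayed near vehicle. In KO-labelled cells the nuclear mean was 5.91 to 6.02, 6.04 to 6.36 and 6.71 to 6.91, and the mitochondrial mean 8.42 to 8.51, 7.06 to 7.68 and 9.07 to 9.13. The mitochondrial minus nuclear difference was 2.16 to 2.51 in the 6 vehicle libraries, 1.03 to 1.32 in the 5 LPS libraries and 2.54 to 3.27 in the 6 DAMPs + Dex libraries. WT DAMPs replicate 3 (1.50) and KO-labelled Dex replicate 2 (1.60) stood apart from the other libraries of their groups.

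**Figure D1:**
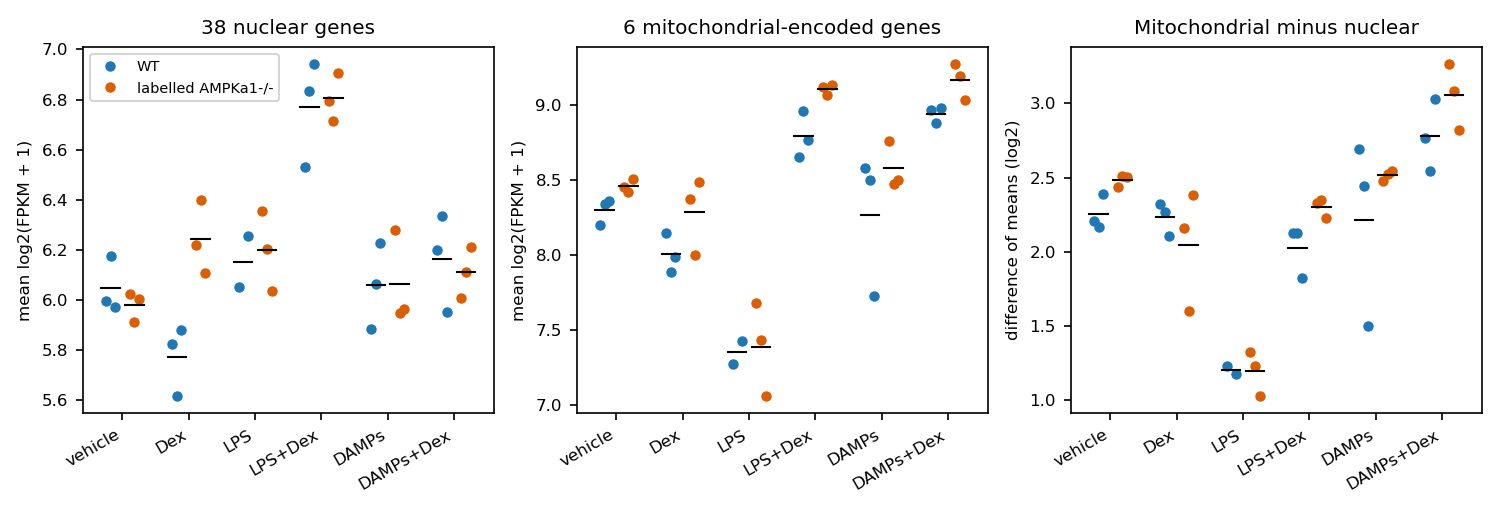
Mean log2(FPKM + 1) of the 38 nuclear genes (left), of the 6 mitochondrial-encoded genes (middle) and their difference (right) by treatment. Points are libraries, bars are group means and colours give the genotype label; the mitochondrial mean of the LPS libraries lay between 7.06 and 7.68, below all libraries of the other treatments.

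LPS against vehicle asked how an inflammatory stimulus alters the subunits. All 6 mitochondrial genes fell in both genotypes. The median log2 fold change was -0.92 in WT and -1.12 in KO-labelled cells, against -0.19 and -0.30 for all genes tested. With same-numbered libraries taken as a block, not all 6 passed in WT. Falls were common: 35.8% of all genes fell in WT and 44.1% in KO-labelled cells, and 19.9% and 20.2% rose. The proton-pumping subunit mt-Nd4 had 507, 662 and 560 FPKM in WT vehicle libraries and 192 and 271 FPKM in WT LPS libraries. It had 633, 596 and 675 FPKM with vehicle and 310, 250 and 209 FPKM with LPS in KO-labelled cells. Its groups did not overlap in either genotype (-1.32 ± 0.22 and -1.32 ± 0.20, adjusted p = 9.65e-06 and 1.42e-06). mt-Nd6 fell as far (by 1.32 and 1.36). mt-Nd2 fell by 0.85 in each genotype, and mt-Nd3 by 0.74 and 0.99, the WT call being lost without LPS 3 (-0.54).

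The smallest fall was that of mt-Nd1, which had 1190, 1457 and 1462 FPKM with vehicle and 951 and 1051 FPKM with LPS in WT cells, without overlap (-0.45 ± 0.16, adjusted p = 0.0227). This WT call was lost without vehicle 2 (-0.40), vehicle 3 (-0.40) or LPS 2 (-0.37), and mt-Nd1 fell by 0.65 in KO-labelled cells. The WT call of mt-Nd5 (a fall by 1.00, SE 0.40, adjusted p = 0.0365) was lost without vehicle 1 (-1.04), vehicle 3 (-0.90), LPS 2 (-0.96) or LPS 3 (-1.05), and in KO-labelled cells it fell by 1.26. Of the other mitochondrial mRNAs (mt-Cytb, mt-Co1, mt-Co2, mt-Co3, mt-Atp6 and mt-Atp8), 4 of 6 fell in each genotype and none rose, with medians of -0.90 and -0.84. mt-Cytb of complex III fell by 1.49 and 1.45 and mt-Atp6 of ATP synthase by 1.06 and 1.03.

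With LPS some nuclear subunits rose and few fell. In WT cells 6 of 38 rose and 2 fell (median 0.06), and in KO-labelled cells 11 rose and 2 fell (median 0.12). As shares, 15.8% of the nuclear genes rose in WT and 28.9% in KO-labelled cells, against 19.9% and 20.2% of all genes, and 5.26% and 5.26% fell, against 35.8% and 44.1%. The split depended on scaling: with libraries centred on one median it was 7 and 0 in WT and 16 and 0 in KO-labelled cells (all genes 25.4% and 29.5%, 29.6% and 30.9%), and after rescaling to TPM 4 and 7 and 7 and 4 (all genes 16.2% and 39.2%, 16.5% and 49.5%). The KO-labelled count of 11 was 7 without vehicle replicate 2 and 6 without LPS replicate 1 (all genes 19% and 19.2%). Ndufs4, an accessory subunit of the peripheral arm whose loss causes Leigh syndrome, had 22.3, 25.7 and 22.3 FPKM in WT vehicle and 49.2 and 62.6 FPKM in WT LPS libraries. It had 21.5, 22.0 and 21.5 FPKM and 58.7, 54.9 and 46.7 FPKM in the KO-labelled ones. Every LPS library was above every vehicle library (1.21 ± 0.17 and 1.26 ± 0.15, adjusted p = 5.02e-07 and 2.89e-08). Ndufb6 of the membrane arm rose by 1.20 ± 0.18 and 1.17 ± 0.16, from 49.9, 56.8 and 61.8 FPKM to 115 and 147 FPKM in WT cells. Ndufc2, also of the membrane arm, rose by 0.86 ± 0.16 and 1.18 ± 0.14, and Ndufb4 by 0.54 and 0.64.

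The falls lay in the membrane arm too. In WT cells Ndufb11 fell (-0.61 ± 0.18, lost without LPS 2 (-0.47)), and so did the weakly expressed Ndufb2 (-0.57 ± 0.23, lost without vehicle 1 (-0.51), vehicle 3 (-0.48) or LPS 3 (-0.21)). Ndufb5, the next lowest in WT, did not pass there (-0.38 ± 0.19, adjusted p = 0.0809). In KO-labelled cells the falls were those of Ndufb2 (-0.69 ± 0.21) and Ndufb5 (-0.40 ± 0.17, lost without vehicle 1 (-0.35), vehicle 3 (-0.40), LPS 2 (-0.42) or LPS 3 (-0.26)). The core subunit Ndufv1, which oxidises NADH, gave -0.11 ± 0.15 and 0.11 ± 0.13. Ndufa6 gave -0.37 ± 0.16 in WT (adjusted p = 0.0502) and -0.02 ± 0.14 in KO-labelled cells. Ndufa12 gave 0.08 ± 0.18 and 0.42 ± 0.16, the latter passing (adjusted p = 0.0198) but not without vehicle 1 (0.37) or LPS 1 (0.35).

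The interaction of genotype with the LPS effect called 0 of 11354 genes (0%) in limma, with 514 genes and 0 of the 44 at an unadjusted p under 0.05. Among accessory subunits the highest were Ndufb11 (0.43 ± 0.24), Ndufa6 (0.36 ± 0.22) and Ndufa12 (0.34 ± 0.24). The lowest of them were Ndufab1, the mitochondrial acyl carrier protein (-0.22 ± 0.21), Ndufb2 (-0.12 ± 0.31) and Ndufb4c (-0.06 ± 0.38). Of all 44 genes the lowest were mt-Nd5 (-0.25 ± 0.54) and mt-Nd3 (-0.24 ± 0.26). The smallest adjusted p among the 44 was 0.947.

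**Figure D2:**
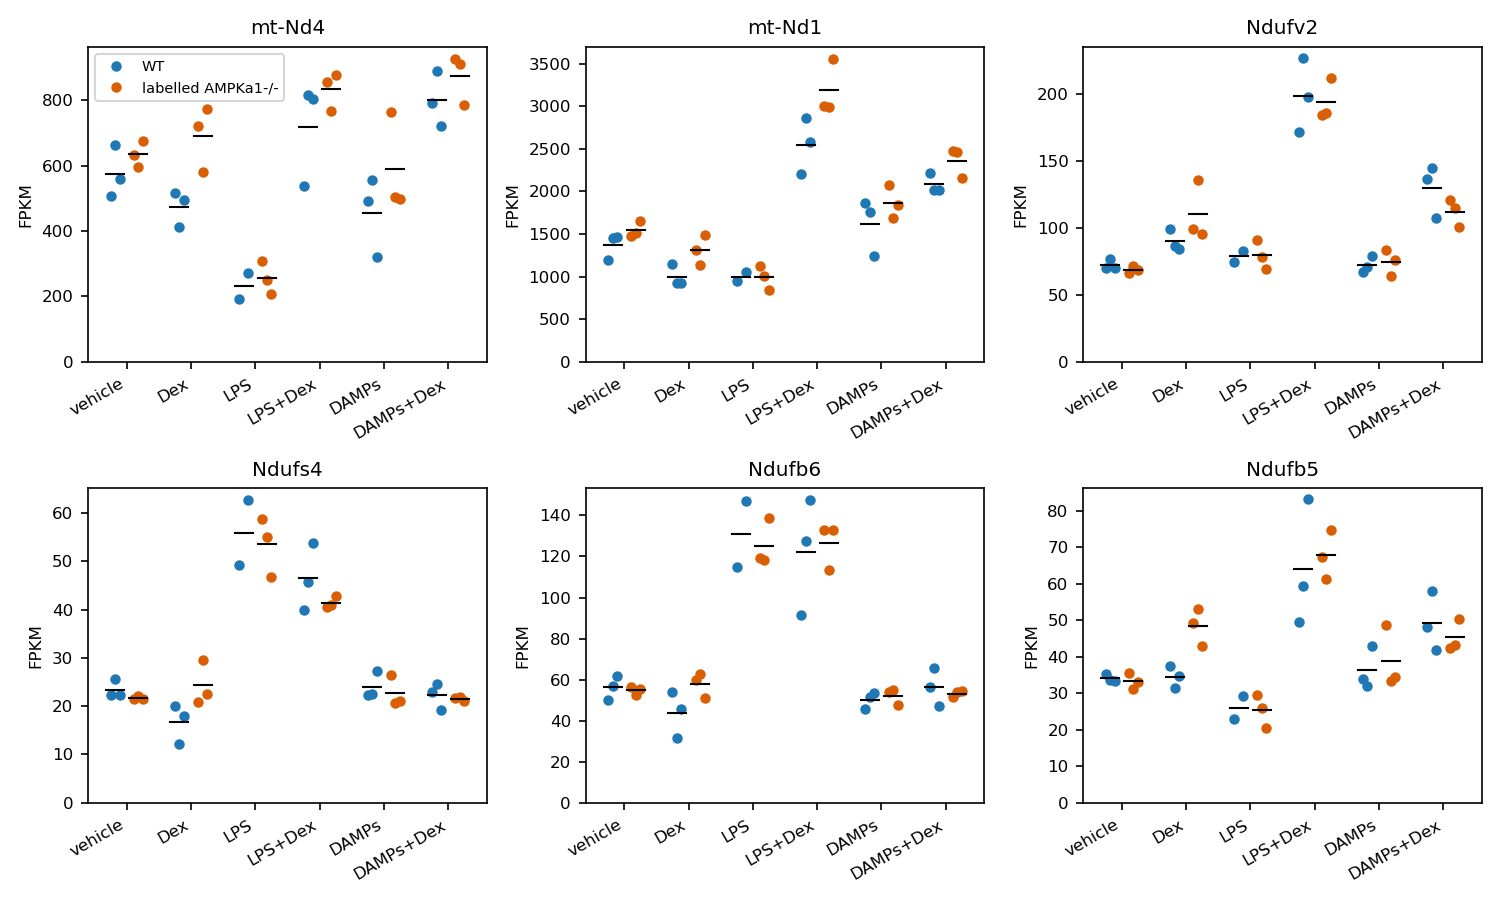
FPKM of 6 subunit genes in each library, by treatment. Points are libraries, bars are group means and colours give the genotype label; mt-Nd4 is lowest with LPS, Ndufs4 and Ndufb6 are high with LPS and with LPS + Dex, and Ndufv2 and Ndufb5 are highest with LPS + Dex.

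Adding Dex to LPS raised subunits of both genomes. Against LPS alone, 6 of 6 mitochondrial and 29 of 38 nuclear genes rose in WT and 6 and 29 in KO-labelled cells, and none fell, where 16.6% of all genes rose in WT and 19.3% in KO-labelled cells (17.5% and 18.4% fell). Without WT Dex 2, KO-labelled Dex 2 or KO-labelled LPS 3, 1 nuclear gene fell in KO-labelled cells. With same-numbered libraries taken as a block, not all 6 mitochondrial genes passed in WT. Medians were 1.45 and 1.69 for mitochondrial and 0.68 and 0.60 for nuclear genes, against -0.03 and 0.01 for all genes. The WT nuclear count was 13 without LPS replicate 2, and 13 when only the groups compared were fitted (all genes 11.4% and 8%). mt-Nd4 stood at 538, 818 and 805 FPKM in WT and 857, 766 and 879 FPKM in KO-labelled LPS + Dex libraries, above every LPS library (1.63 ± 0.22 and 1.72 ± 0.20, adjusted p = 9.88e-07 and 4.6e-08). mt-Nd1 rose by 1.34 and 1.69, and mt-Nd3 by 1.67 and 2.04. The WT rise of mt-Nd5 (1.11 ± 0.40) was lost without LPS 2 (1.06), LPS 3 (1.15), LPS + Dex 1 (0.89) or LPS + Dex 2 (1.00), and its KO-labelled rise was 1.53 ± 0.36.

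Among the nuclear core subunits the largest rise was that of Ndufv2, an iron-sulphur subunit of the NADH-oxidising module, with 74.5 and 83.1 FPKM in WT LPS and 172, 227 and 198 FPKM in WT LPS + Dex libraries. In KO-labelled cells it had 90.7, 78.0 and 69.6 FPKM against 184, 186 and 212 FPKM. The groups did not overlap (1.32 ± 0.15 and 1.28 ± 0.13, adjusted p = 5.45e-08 and 8.55e-09). Its partner Ndufv1 rose by 0.90 and 0.65, Ndufs1, which holds several clusters, by 0.75 and 0.97, and Ndufs7, which holds the last cluster before ubiquinone, by 1.05 and 0.80. Ndufs3 rose by 0.72 and 0.78, the WT call being lost without LPS 2 (0.58). Ndufs8 rose in WT by 0.58, lost without LPS 2 (0.44), and gave 0.28 ± 0.13 in KO-labelled cells (adjusted p = 0.0935).

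Among accessory subunits the highest in WT were Ndufb5 (1.24 ± 0.19), Ndufb10 (1.11 ± 0.18) and Ndufa13, also known as GRIM-19 (0.95 ± 0.19), all of the membrane arm. Ndufb5 had 23.1 and 29.1 FPKM with LPS and 49.6, 59.3 and 83.1 FPKM with LPS + Dex, without overlap. In KO-labelled cells these 3 rose by 1.40, 0.82 and 0.79. The lowest were genes that LPS alone had raised: Ndufs4 gave -0.26 ± 0.17 in WT (adjusted p = 0.243) and -0.35 ± 0.15 in KO-labelled cells (adjusted p = 0.0617), Ndufb6 gave -0.12 ± 0.18 and 0.01 ± 0.16, and Ndufb4c gave -0.05 ± 0.28 and 0.22 ± 0.25. Ndufs4 stood at 39.9, 45.6 and 53.9 FPKM in WT LPS + Dex, overlapping the LPS libraries. By arm, 13 of 16 peripheral and 14 of 19 membrane arm genes rose in WT, and 11 and 16 in KO-labelled cells.

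Ndufa6 and Ndufa12 are accessory subunits of the peripheral arm. Ndufa6 had 85.3 and 117 FPKM with LPS and 109, 138 and 158 FPKM with LPS + Dex in WT cells, and these groups overlapped. Its fold change of 0.42 ± 0.16 (adjusted p = 0.0459) missed the threshold when any 1 of 16 libraries was left out, among them LPS replicate 2 (0.19), and was 0.35 ± 0.14 in KO-labelled cells (adjusted p = 0.0535). Ndufa12 had 101 and 129 FPKM and 161, 217 and 208 FPKM, without overlap (0.75 ± 0.18, lost without LPS 2 (0.58)), and rose by 0.57 ± 0.16 in KO-labelled cells. The interaction of genotype with the effect of Dex on LPS called 0 of 11354 genes (0%) in limma, with 311 genes and 0 of the 44 at an unadjusted p under 0.05.

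Against vehicle, 33 of 38 nuclear genes were higher with LPS + Dex in WT and 35 in KO-labelled cells (17.2% and 16.7% of all genes were higher, 37% and 40.8% lower), with medians of 0.72 and 0.87 against -0.23 and -0.28 for all genes. This comparison shares its vehicle libraries with LPS against vehicle. Of the mitochondrial genes, mt-Nd1 (0.89 and 1.04), mt-Nd2 (0.52 and 0.78) and mt-Nd3 (0.93 and 1.05) were higher in both genotypes, the WT call of mt-Nd2 being lost without vehicle 1 (0.45) or LPS + Dex 2 (0.38). mt-Nd4 (0.30 ± 0.20 in WT), mt-Nd5 (0.10 ± 0.36) and mt-Nd6 (0.21 ± 0.23) did not pass in either genotype in the main fit. Some of these genes passed in WT with library weights (arrayWeights). In KO-labelled cells some passed in a fit of only the groups compared. Ndufc2 had 181, 196 and 168 FPKM with vehicle and 577, 446 and 599 FPKM with LPS + Dex in WT cells, without overlap (1.56 ± 0.14, adjusted p = 4.22e-10).

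Other transcripts moved with LPS + Dex. Saa3, an acute-phase gene, took 16.0% to 24.0% of all FPKM in WT and 16.5% to 21.5% in KO-labelled LPS + Dex libraries, against 3.74% to 7.58% with LPS and at most 0.0344% with vehicle. The 8 neutrophil markers summed to 511 to 1200 FPKM in WT and 329 to 620 FPKM in KO-labelled LPS + Dex libraries, against 126 to 161 FPKM with LPS, where Camp was the most abundant (92.5 to 133 FPKM), and at most 41.2 FPKM with vehicle. In the LPS + Dex libraries S100a8 was the most abundant of them (301 to 1147 FPKM), while the defining markers Ly6g, Mpo and Elane were below 1 FPKM in every library. With each library rescaled without mitochondrial genes and Saa3, 31 of 38 nuclear and 6 of 6 mitochondrial genes rose in WT with LPS + Dex against LPS, and 35 and 6 in KO-labelled cells (all genes 18.9% and 22.7%). The part of the neutrophil markers in the result was not tested, and in bulk RNA fewer cells of a type and less RNA per cell cannot be told apart.

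**Figure D3:**
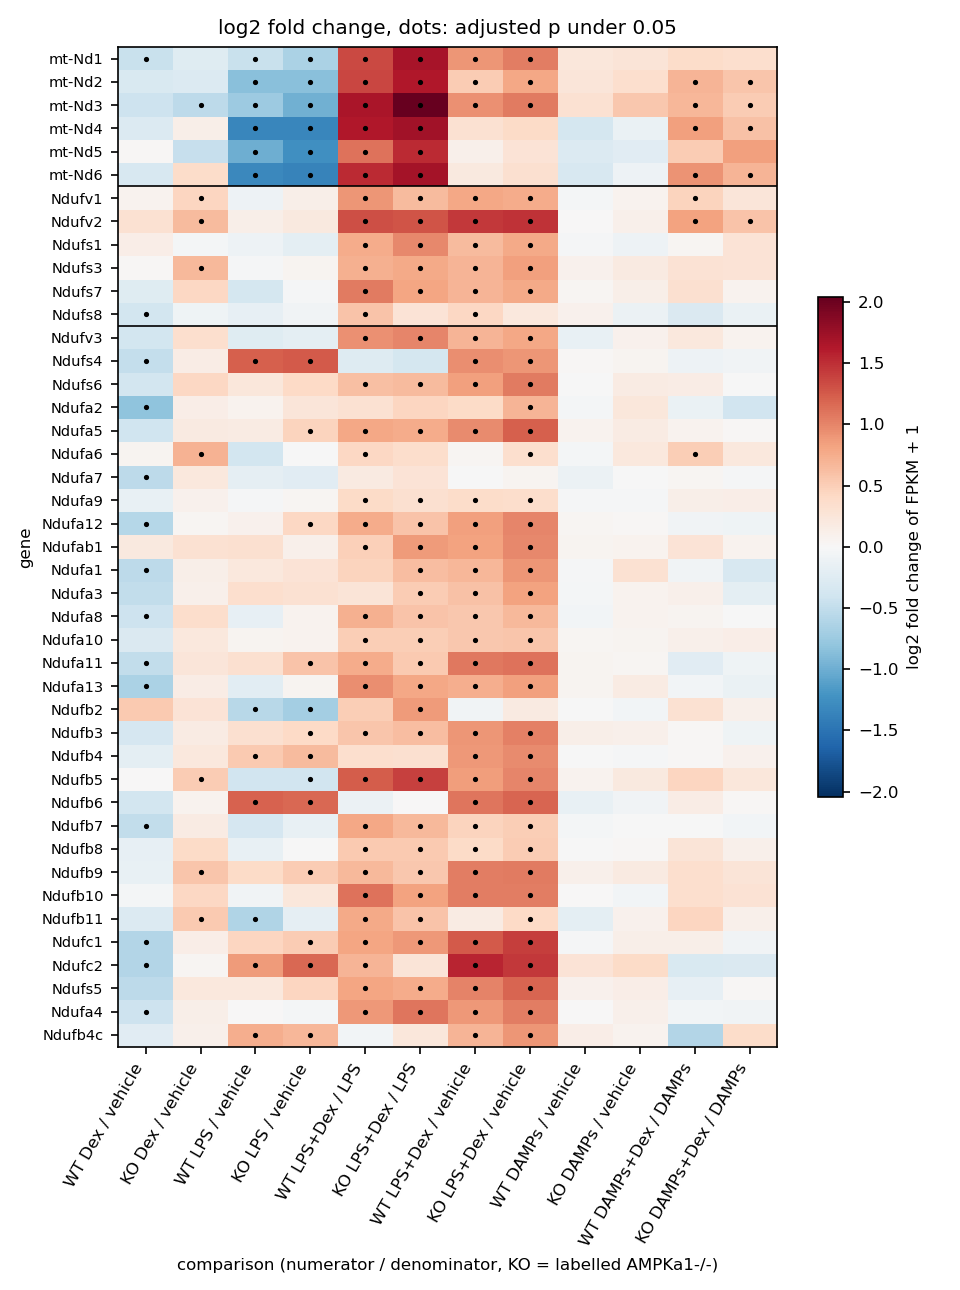
Log2 fold change of FPKM + 1 for 43 of the 44 genes (rows: mitochondrial-encoded, nuclear core, then the other nuclear genes) in 12 comparisons (columns, KO = labelled AMPKa1-/-). Dots mark an adjusted p under 0.05; the LPS against vehicle columns are negative and the LPS + Dex against LPS columns positive for all 6 mitochondrial genes.

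With LPS AA467197, a paralog of Ndufa4, rose while Ndufa4 did not pass the test. Ndufa4 is a subunit of complex IV, and AA467197 (Nmes1, C15ORF48 in humans) encodes a related protein that can take its place there. AA467197 had 0.505, 0.368 and 0.233 FPKM with vehicle and 33.9 and 73.6 FPKM with LPS in WT cells. In KO-labelled cells it had 0.528, 0.507 and 0.0735 FPKM and 16.0, 20.5 and 49.8 FPKM. Every LPS library was far above vehicle (5.23 ± 0.31 and 4.29 ± 0.27 on the log2(FPKM + 1) scale, adjusted p = 3.32e-14 and 1.38e-13), and with LPS + Dex the gene was listed at 0 in 5 of 6 libraries and at 0.0841 FPKM in the other. Ndufa4 gave 0.01 ± 0.15 and -0.05 ± 0.14 with LPS, at 145 and 151 FPKM in WT and 160, 145 and 111 FPKM in KO-labelled cells, so that it stayed the higher of the pair in every LPS library. It rose with LPS + Dex against LPS to 227, 276 and 329 FPKM in WT (0.88 ± 0.15) and 310, 267 and 302 FPKM in KO-labelled cells (1.09 ± 0.14). The other paralog, Ndufa4l2, did not exceed 0.404 FPKM.

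**Figure D4:**
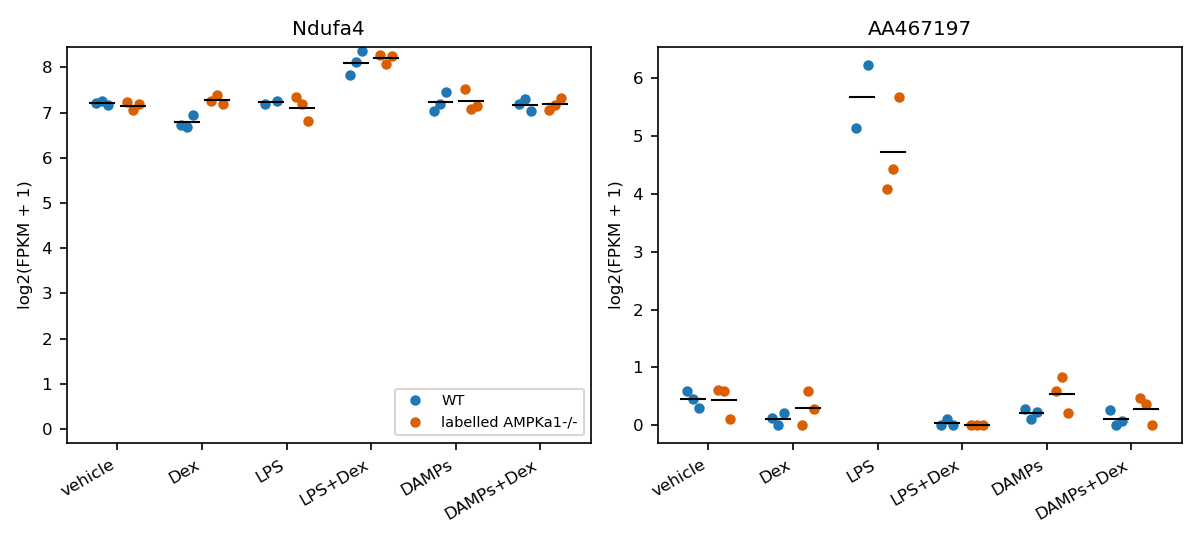
Ndufa4 (left) and AA467197 (right) as log2(FPKM + 1) in each library by treatment. Points are libraries, bars are group means and colours give the genotype label; AA467197 reached 16.0 to 73.6 FPKM in the LPS libraries and stayed below 1 FPKM in all others.

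With Dex alone a minority of nuclear subunits passed the test, those in WT falling and those in KO-labelled cells rising. In WT 13 of 38 fell and 0 rose (median -0.35, all genes 0.05; 14.9% of all genes fell and 15.9% rose). In KO-labelled cells 7 rose and 0 fell (median 0.21, all genes -0.05; 11.9% rose and 16% fell). 1 nuclear gene rose in WT when any 1 of 9 libraries was left out, Dex 1 and both LPS libraries among them. Under quantile normalization the WT split was 16 lower and 2 higher, and after rescaling to TPM 12 and 2 (all genes 17.2% and 17.2%, 11.9% and 17.3%). The WT count was 5 without vehicle replicate 2 and 4 without Dex replicate 2, and the KO-labelled count 4 without Dex replicate 2, where 11.7%, 11.2% and 10% of all genes passed in the same direction. With all libraries 34.2% of the 38 fell in WT and 18.4% rose in KO-labelled cells. Ndufa13 had 86.4, 109 and 81.6 FPKM with vehicle and 62.3, 50.4 and 62.4 FPKM with Dex in WT (-0.65 ± 0.17, adjusted p = 0.0054), and 85.0, 86.5 and 89.8 FPKM and 89.6, 121 and 84.3 FPKM in KO-labelled cells (0.15 ± 0.17). Its WT groups did not overlap and its KO-labelled groups did. Ndufa12 gave -0.59 ± 0.16 and 0.03 ± 0.16. Ndufv2 and Ndufs3 of the core rose in KO-labelled cells by 0.65 ± 0.13 and 0.66 ± 0.15, against 0.32 ± 0.13 and 0.03 ± 0.15 in WT, and Ndufa6 rose by 0.71 ± 0.14 against 0.05 ± 0.14.

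The interaction of genotype with the Dex effect had a nuclear median of 0.61 and called 0 of 11354 genes (0%) in limma. 2441 genes, 28 of the 38 nuclear and 1 of the 6 mitochondrial genes had an unadjusted p under 0.05, the smallest adjusted p among the 44 was 0.194, and 7 of the 44 passed with library weights (arrayWeights), as did 3.02% of all genes. Of the mitochondrial genes, mt-Nd1 fell in WT (-0.46 ± 0.15), lost without vehicle 2 (-0.41), vehicle 3 (-0.40), Dex 2 (-0.41) or Dex 3 (-0.40). mt-Nd3 fell in KO-labelled cells (-0.54 ± 0.17), lost without vehicle 2 (-0.50), vehicle 3 (-0.52), Dex 2 (-0.51) or Dex 3 (-0.52).

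Set against each other with Dex, KO-labelled cells had 28 of 38 nuclear and 3 of 6 mitochondrial genes above WT and none below, where 11% of all genes were higher and 15.5% lower. Ndufb11 had 132, 93.1 and 115 FPKM in WT and 172, 214 and 164 FPKM in KO-labelled Dex libraries, without overlap (0.69 ± 0.16, adjusted p = 0.0074), and Ndufa13 differed by 0.73 ± 0.17. Replicate 2 decided the count: without WT Dex replicate 2, 2 nuclear and 0 mitochondrial genes passed, and without KO-labelled Dex replicate 2, 2 and 0 (all genes 1.35% and 1.52%). The mitochondrial count was 1 without any of 8 other libraries (WT vehicle 3, WT Dex 3, WT DAMPs + Dex 1, KO-labelled vehicle 1, KO-labelled Dex 1, KO-labelled Dex 3, KO-labelled LPS + Dex 1, KO-labelled DAMPs + Dex 2). The sum of all FPKM was 647329 to 689281 in WT and 725917 to 777210 in KO-labelled Dex libraries, against 697175 to 739460 with vehicle. After rescaling to TPM, which makes all sums equal, 20 nuclear and 1 mitochondrial genes passed (all genes 5.95%). The 4 fibroblast markers summed to 10.8 to 21.9 FPKM in WT and 2.52 to 3.98 FPKM in KO-labelled Dex libraries, with Col1a2 the most abundant and Pdgfra and Dcn below 1 FPKM. The 8 neutrophil markers summed to 2.24 to 6.95 FPKM in WT and 23.0 to 47.8 FPKM in KO-labelled Dex libraries, with S100a8 the most abundant by its mean in each group (1.10 to 4.19 and 8.13 to 19.1 FPKM) and Ly6g, Mpo and Elane below 1 FPKM, and 5 of the 5 tested were higher in KO-labelled cells (median 1.87). Such differences were not confined to Dex. Fibroblast markers summed to 8.29 to 17.3 FPKM in WT and 1.48 to 3.80 FPKM in KO-labelled DAMPs + Dex libraries. They also differed without overlap with LPS (8.74 and 9.14 against 3.23 to 5.38 FPKM). Neutrophil markers summed to 2.34 to 7.21 FPKM in WT and 14.8 to 43.3 FPKM in KO-labelled DAMPs libraries. With vehicle both sums overlapped between the genotypes. The part of either marker list in the result was not tested.

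**Figure D5:**
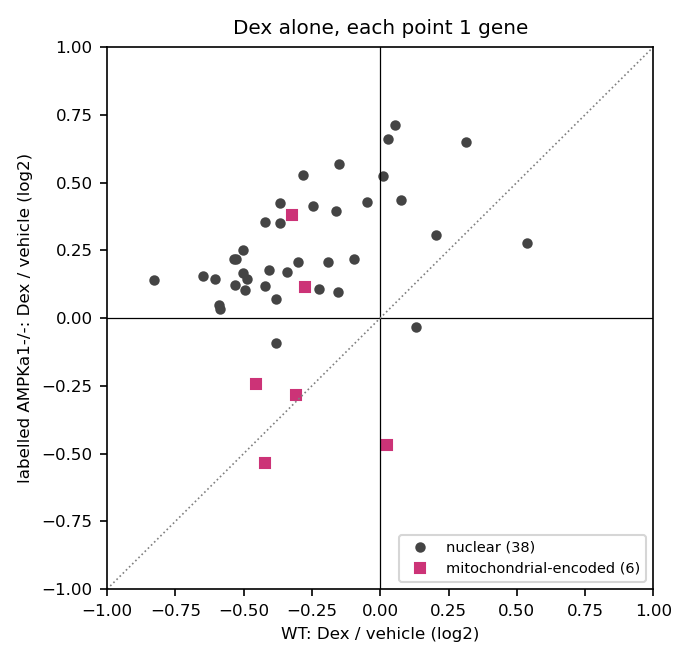
Log2 fold change with Dex against vehicle in WT (x axis) and in cells labelled AMPKa1-/- (y axis), 1 point per gene: circles for the 38 nuclear and squares for the 6 mitochondrial-encoded genes. The dotted line marks equal change; the nuclear medians were -0.35 in WT and 0.21 in KO-labelled cells.

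In the other 5 treatments 0 of the 44 genes differed between the genotypes in limma (0.432% of all genes did with vehicle, 0.766% with LPS, 0.669% with LPS + Dex, 0.731% with DAMPs and 1.06% with DAMPs + Dex). The nuclear medians of KO-labelled against WT cells were -0.06, 0.05, 0.04, 0.02 and -0.08 in this order, and the mitochondrial ones 0.16, 0.06, 0.31, 0.31 and 0.18. An unadjusted p under 0.05 was reached by 0, 0, 2, 2 and 1 of the 44 genes, and by 700, 1300, 921, 860 and 1067 of all 11354 genes. Over these comparisons 6 calls were made with arrayWeights, which called 5.53, 1.21, 25.8, 6.46 and 3.3% of all genes.

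With DAMPs against vehicle 0 of the 44 genes passed in limma in either genotype (1.22% of all genes rose and 0.793% fell in WT, 1.89% and 2.24% in KO-labelled cells). An unadjusted p under 0.05 was reached by 0 and 3 of the 44, and by 1099 and 1509 of all 11354 genes. With arrayWeights 1 mitochondrial gene passed in WT, and 1 nuclear and 1 mitochondrial gene in KO-labelled cells (all genes 6.41% and 13.3%). In KO-labelled cells 1 mitochondrial gene passed without WT DAMPs replicate 3, and 1 without KO-labelled LPS replicate 3. mt-Nd4 had 492, 556 and 322 FPKM in WT and 765, 506 and 498 FPKM in KO-labelled DAMPs libraries, overlapping vehicle in both. Its lowest WT value came from replicate 3, the library with the low mitochondrial mean. The interaction of genotype with the DAMPs effect called 0 of 11354 genes (0%) in limma, with 66 genes and 0 of the 44 at an unadjusted p under 0.05.

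With DAMPs + Dex against DAMPs, 4 of 6 mitochondrial genes (mt-Nd2, mt-Nd3, mt-Nd4 and mt-Nd6) rose in each genotype (medians 0.69 and 0.58), and 3 of 38 nuclear genes in WT and 1 in KO-labelled cells (medians 0.09 and 0.05). Of all genes 11.7% and 13.1% rose and 12.6% and 12.2% fell. With arrayWeights more nuclear genes passed in each genotype. In a fit of only the groups compared, fewer mitochondrial genes passed in WT. These counts are given below with the processing. mt-Nd4 reached 792, 890 and 722 FPKM in WT (0.84 ± 0.20, adjusted p = 0.00183) and 927, 911 and 787 FPKM in KO-labelled cells (0.59 ± 0.20, adjusted p = 0.0264), above every DAMPs library of its genotype. The KO-labelled mitochondrial count was 0 without DAMPs replicate 2, and 1 without DAMPs replicate 3, DAMPs + Dex replicate 1 or DAMPs + Dex replicate 2. In WT mt-Nd3 (0.68) fell short without DAMPs 3 (0.44).

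The nuclear gene that rose in both genotypes was Ndufv2, with 67.1, 71.1 and 78.7 FPKM with DAMPs and 137, 145 and 108 FPKM with DAMPs + Dex in WT, without overlap (0.83 ± 0.13, adjusted p = 2.58e-05), and 0.58 ± 0.13 in KO-labelled cells (adjusted p = 0.00153). In WT the other two were Ndufv1 (0.45 ± 0.13, lost without DAMPs 1 (0.33) or DAMPs + Dex 2 (0.34)) and Ndufa6 (0.50 ± 0.14, lost without DAMPs + Dex 1 (0.41)). The WT nuclear count was 8 without DAMPs + Dex replicate 3, and 5 without WT LPS + Dex 1, WT LPS + Dex 3 or KO-labelled DAMPs 1. The KO-labelled one was 2 without its DAMPs replicate 1.

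The other complexes give the setting of these changes. With LPS + Dex against LPS, 4 of 4 nuclear genes of complex II, 8 of 9 of complex III, 8 of 10 of complex IV and 13 of 14 of ATP synthase rose in WT, with medians of 0.86, 0.85, 0.61 and 0.74. In KO-labelled cells the counts were 4, 9, 7 and 14 and the medians 0.87, 0.98, 0.63 and 0.74. Sdhd (1.28 and 1.26) and Sdha (1.01 and 0.93) of complex II and Atp5g3 (1.01 and 1.17) of ATP synthase were among those that rose. With LPS alone Sdha fell by 0.54 and 0.49, while Cox5a (1.34 and 1.12) and Cox7a2 (0.83 and 0.86) of complex IV rose. Of 15 assembly factors of complex I, 7 rose and 3 fell with LPS in WT and 7 and 3 in KO-labelled cells (medians 0.19 and 0.35), where 19.9% and 20.2% of all genes rose and 35.8% and 44.1% fell. Ndufaf3 rose by 1.28 in both genotypes. The methyltransferase Ndufaf7 fell by 0.90 and 1.14 with LPS and rose by 1.11 and 1.57 with LPS + Dex against LPS, where 4 rose and 1 fell in WT and 3 and 1 in KO-labelled cells. In that comparison 16.6% and 19.3% of all genes rose and 17.5% and 18.4% fell, so that the assembly factors' share of rises in KO-labelled cells was near that of all genes.

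Of 16 genes that express the mitochondrial genome, 3 rose and 4 fell with LPS in WT and 2 and 5 in KO-labelled cells (medians -0.10 and -0.24), shares no higher than those of all genes. With LPS + Dex against LPS 3 rose and 1 fell in WT, and 6 and 2 in KO-labelled cells, where 16.6% and 19.3% of all genes rose and 17.5% and 18.4% fell. Lrpprc, which stabilises mitochondrial mRNAs, then rose by 0.82 and 0.96, and Pnpt1, which degrades mitochondrial RNA, fell by 0.93 and 0.60 after rising with LPS by 0.87 and 0.69. Of 9 regulators, 3 rose and 3 fell in WT and 3 and 2 in KO-labelled cells in the same comparison (medians 0.10 and 0.18). Among them the coactivator Ppargc1b rose by 1.84 and 2.10, and Hif1a fell by 1.07 and 0.79, having risen by 2.48 and 1.96 with LPS.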

How the data were processed

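RNA-seq of 35 mouse BMDM libraries in 12 groups (6 treatments, 2 genotype labels) was used, and WT LPS replicate 1 was not analysed here. The authors deposited FPKM values per Ensembl identifier, 1 column per library. The submitters' processing notes name Bowtie2 2.2.3, TopHat2 2.0.12, HTSeq 0.6.1 and DESeq2, and GRCm38/mm10, with no roles. How RNA was selected and whether strand was kept is not stated there. Symbols and positions came from GENCODE M21 (GRCm38; 46488 of 47069 identifiers matched) and promoters from RefSeq (GRCm38.p6). The gene length behind the deposited FPKM is not stated, and with GENCODE exon lengths 55.1% to 63.4% of values below 10 fragments were whole numbers (tolerance 0.001), too few for a count test. FPKM is scaled to library total, so a few abundant genes lower all others.

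Values were tested with limma 3.58.1 (R 4.3.3; 2-sided, empirical Bayes with trend, Benjamini-Hochberg over 11354 genes, threshold 0.05) on log2(FPKM + 1), in 1 fit of all 12 groups, for genes with a mean of at least 1 FPKM. Fold changes are log2 with their SE, given as WT then KO-labelled where a pair stands. With the pseudocount, changes of low genes are understated. P-values measure the spread between these libraries. The test was checked on simulated data, but no outcome of that check is given here. The genes and lists were chosen with earlier results of these data known. Named genes are the mitochondrial and nuclear core subunits, Ndufa6, Ndufa12, Ndufa4 with its paralogs, and the 3 highest and 3 lowest accessory subunits in WT LPS against vehicle, WT LPS + Dex against LPS and the genotype interaction of LPS; genes beyond these were named after their values were seen. A gene under this rule is not reported here. Same-numbered libraries deviated together (every correlation over 0.1) in KO-labelled vehicle with Dex, LPS and LPS + Dex and in LPS with LPS + Dex (lowest 0.124, highest 0.400). The main fit, which gave the SE, adjusted p and counts above, held no block for these pairs. Counts from a fit with the replicate block are given below with the other alternatives. WT LPS + Dex with LPS had only 2 pairs (0.113 and 0.429), too few for this rule. Every other treatment comparison made here had a correlation under 0.1. Among WT groups that were not compared, some also deviated together, such as LPS + Dex with DAMPs (0.757, 0.487 and 0.583). Others did not, such as LPS with DAMPs + Dex (-0.179 and -0.297).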

Additional observations from a re-analysis of the deposited data

Results flagged for a closer look

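With Dex alone the mean level of the 38 nuclear genes moved in opposite directions in the 2 genotype labels in every library: each WT Dex library lay below the WT vehicle mean (mean difference -0.27, log2) and each KO-labelled Dex library above its vehicle mean (mean difference 0.26). The difference between these means was not tested. Gene by gene, the interaction of genotype with Dex called 0 of 38 in limma. At an unadjusted p under 0.05 were 28 of 38, and 2441 of all 11354 genes tested. With at most 3 libraries a group, single libraries were not tested as outliers.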

How the results depend on the processing

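Counts are calls at an adjusted p under 0.05 in limma, against vehicle unless stated (KO, KO-labelled). With no filter on level the count was 8 (from 13) lower nuclear in WT Dex, 1 (from 4) higher mitochondrial in KO DAMPs + Dex against DAMPs and 1 (from 3) higher mitochondrial in KO against WT cells with Dex. In a fit of one genotype the count was 8 (from 13) lower nuclear in WT Dex and 0 (from 1) lower mitochondrial in WT Dex. With libraries centred on one median the count was 2 (from 1) lower mitochondrial in WT Dex, 1 (from 3) higher nuclear in WT DAMPs + Dex against DAMPs, 1 (from 0) mitochondrial in KO DAMPs and 2 (from 4) higher mitochondrial in KO DAMPs + Dex against DAMPs. After rescaling to TPM the count was 0 (from 1) lower mitochondrial in WT Dex, 5 (from 3) higher nuclear in WT DAMPs + Dex against DAMPs, 7 (from 11) higher nuclear in KO LPS and 1 (from 3) higher mitochondrial in KO against WT cells with Dex. After rescaling without mitochondrial genes and Saa3 the count was 0 (from 1) lower mitochondrial in WT Dex, 6 (from 3) higher nuclear in WT DAMPs + Dex against DAMPs, 2 (from 1) higher nuclear in KO DAMPs + Dex against DAMPs and 1 (from 3) higher mitochondrial in KO against WT cells with Dex. With arrayWeights the count was 2 (from 1) lower mitochondrial in WT Dex, 11 (from 6) higher nuclear in WT LPS, 5 (from 3) higher mitochondrial in WT LPS + Dex against vehicle, 1 (from 0) mitochondrial in WT DAMPs, 8 (from 3) higher nuclear in WT DAMPs + Dex against DAMPs, 13 (from 7) higher nuclear in KO Dex, 1 (from 0) nuclear in KO DAMPs, 1 (from 0) mitochondrial in KO DAMPs, 11 (from 1) higher nuclear in KO DAMPs + Dex against DAMPs, 6 (from 0) all in KO against WT cells in the other 5 treatments and 7 (from 0) all in the genotype interaction of Dex. In a fit of only the groups compared the count was 13 (from 29) higher nuclear in WT LPS + Dex against LPS, 2 (from 4) higher mitochondrial in WT DAMPs + Dex against DAMPs, 11 (from 7) higher nuclear in KO Dex, 5 (from 3) higher mitochondrial in KO LPS + Dex against vehicle and 1 (from 0) mitochondrial in KO DAMPs. With quantile normalization the count was 2 (from 1) lower mitochondrial in KO Dex, 1 (from 0) mitochondrial in KO DAMPs and 1 (from 3) higher mitochondrial in KO against WT cells with Dex. When 1 library was left out, the counts ranged from 4 to 16 lower nuclear in WT Dex, 0 to 2 lower mitochondrial in WT Dex, 13 to 32 higher nuclear in WT LPS + Dex against LPS, 2 to 8 higher nuclear in WT DAMPs + Dex against DAMPs, 4 to 9 higher nuclear in KO Dex, 0 to 1 lower mitochondrial in KO Dex, 6 to 11 higher nuclear in KO LPS, 0 to 1 mitochondrial in KO DAMPs, 1 to 2 higher nuclear in KO DAMPs + Dex against DAMPs, 0 to 4 higher mitochondrial in KO DAMPs + Dex against DAMPs, 2 to 31 higher nuclear in KO against WT cells with Dex, 0 to 3 higher mitochondrial in KO against WT cells with Dex. With the replicate block the counts were 5 (from 6) higher nuclear in WT LPS, 5 (from 6) lower mitochondrial in WT LPS, 32 (from 33) higher nuclear in WT LPS + Dex against vehicle, 30 (from 29) higher nuclear in WT LPS + Dex against LPS, 5 (from 6) higher mitochondrial in WT LPS + Dex against LPS, 30 (from 29) higher nuclear in KO LPS + Dex against LPS and 2 (from 3) higher mitochondrial in KO against WT cells with Dex, and every other count stayed the same. These moved no count by over 1.5 times. The cause of each change was not tested, and arrayWeights stopped before it reached its convergence tolerance. Of 7629 values of 166 single-gene results over the alternatives, 7322 kept their direction and side of the threshold, 307 kept only their direction and 0 reversed. Levels near the worth of a few fragments, such as those of Ndufb2 or the near-0 values of AA467197, are limited by depth. Leaving out 1 of the 2 WT LPS libraries assumes that the lone library varies like the other groups.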

Other observations

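The ribosomal RNAs of the mitochondrial genome went the other way from its mRNAs, and were looked at after their values were seen. mt-Rnr1 had 195, 208 and 230 FPKM with vehicle, 889 and 699 FPKM with LPS and 136, 137 and 188 FPKM with LPS + Dex in WT cells. In KO-labelled cells it had 305, 286 and 227 FPKM, 1871, 1238 and 884 FPKM and 290, 264 and 364 FPKM. Its fold change with LPS was 1.90 ± 0.37 in WT and 2.23 ± 0.33 in KO-labelled cells (limma, adjusted p = 7.14e-05 and 1.18e-06), and that of mt-Rnr2 0.93 ± 0.32 and 1.73 ± 0.28. With LPS + Dex against LPS mt-Rnr1 fell by 2.37 and 2.06 and mt-Rnr2 by 1.39 and 1.35. The WT DAMPs libraries had 341, 172 and 870 FPKM of mt-Rnr1, the highest in replicate 3, which was low in mitochondrial mRNA. How RNA was selected for the libraries is not given in the sources used here, and its part was not tested.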
